A study of Mus musculus with 62 samples.

Results

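The corticotropin-releasing factor (CRF) and neuropeptide Y (NPY) systems were followed through 8 genes, taken by their exact symbols from the 56415 genes of the count table. They were the CRF peptide gene Crh, the CRF-binding protein gene Crhbp, the CRF receptor genes Crhr1 and Crhr2, the NPY peptide gene Npy, and the NPY receptor genes Npy1r, Npy2r and Npy5r. Poly(A) RNA was sequenced from the cortex (CTX), from the dorsal and ventral parts of the hippocampus (dHPC and vHPC) and from the dorsal and ventral parts of the striatum (DS and VS) of 16 male C57BL/6J mice aged 8 to 10 weeks. Every mouse was injected intraperitoneally, with saline or with ethanol at 2 g/kg as a 20% solution in saline. Acute groups received 1 injection and chronic groups received 10 daily injections, and all were killed 4 h after the last. This gave 20 groups of region, paradigm and treatment, with 3 or 4 mice each and 62 libraries in all. Only males were used, and the tissue was punched from frozen slices, so that each library holds all the cells of a punch. At the RNA level, fewer cells of a type and less RNA per cell cannot be told apart.

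CRF is the peptide that starts the hormonal stress response from the hypothalamus, and outside the hypothalamus it is made largely by inhibitory neurons of the cortex, hippocampus and extended amygdala. The binding protein holds the peptide in the extracellular space and keeps it from its receptors. CRF receptor 1 is the main neuronal receptor for CRF, and CRF receptor 2 responds mainly to the urocortins. NPY is released by interneurons and is commonly described as opposing CRF in circuits of anxiety and alcohol intake. Its Y1 receptor is mainly postsynaptic, its Y2 receptor is best known as a presynaptic receptor that limits transmitter release, and its Y5 receptor is often made together with Y1 and is known for its part in feeding. All of these receptors couple to G proteins, the CRF receptors mainly raising and the NPY receptors mainly lowering cyclic AMP.

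The genes lie at 7 places on 5 chromosomes of GRCm39. Crh (ENSMUSG00000049796) is at chr3:19747565-19749560 and Npy2r (ENSMUSG00000028004) at chr3:82445690-82455391, both on the minus strand. Crhbp (ENSMUSG00000021680) is at chr13:95567879-95581432 on the minus strand and Crhr1 (ENSMUSG00000018634) at chr11:104023681-104066349 on the plus strand. Npy (ENSMUSG00000029819) is at chr6:49799690-49806487 on the plus strand, and Crhr2 (ENSMUSG00000003476) at chr6:55067034-55110001 on the minus strand. Npy5r (ENSMUSG00000044014), at chr8:67132617-67140780 on the minus strand, and Npy1r (ENSMUSG00000036437), at chr8:67149844-67159444 on the plus strand, point away from each other with 9063 bases between them. The extent of Crhr2, exons and introns together, shares 415 bases with the noncoding gene Gm34358 of the other strand. Whether exons of the pair overlap was not examined. Where they do, libraries made without strand information (CTX and dHPC) cannot tell their reads apart. The extents of the other 7 genes overlapped no other gene.

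The results below turn mostly on Crhbp, Npy and Npy2r, and their promoters are shown to set a gene that differed with ethanol beside the most abundant gene and the gene with the sharpest regional pattern. The windows come from RefSeq with the build GRCm38.p6 and run from 250 bases before to 50 bases after the start of the gene. Windows were matched by symbol for 7 of the 8 genes. The Crhbp window is chr13:95444782-95445081 on the minus strand, the Npy window chr6:49822460-49822759 on the plus strand and the Npy2r window chr3:82548036-82548335 on the minus strand. Capitals mark the TATA box letters TATAAA in Crhbp and the GC box letters GGGCGG in the others.
Crhbp: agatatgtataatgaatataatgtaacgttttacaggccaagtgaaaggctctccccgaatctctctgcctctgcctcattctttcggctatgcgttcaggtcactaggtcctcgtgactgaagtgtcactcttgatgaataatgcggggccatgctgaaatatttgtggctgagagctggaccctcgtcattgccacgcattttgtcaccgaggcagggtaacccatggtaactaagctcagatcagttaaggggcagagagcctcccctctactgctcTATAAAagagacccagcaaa
Npy: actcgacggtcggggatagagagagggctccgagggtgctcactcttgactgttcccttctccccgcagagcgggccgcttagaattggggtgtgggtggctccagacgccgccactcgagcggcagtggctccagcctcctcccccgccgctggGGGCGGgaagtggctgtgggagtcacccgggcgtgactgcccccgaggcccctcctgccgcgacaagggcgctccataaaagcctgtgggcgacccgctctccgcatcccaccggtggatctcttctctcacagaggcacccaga
Npy2r: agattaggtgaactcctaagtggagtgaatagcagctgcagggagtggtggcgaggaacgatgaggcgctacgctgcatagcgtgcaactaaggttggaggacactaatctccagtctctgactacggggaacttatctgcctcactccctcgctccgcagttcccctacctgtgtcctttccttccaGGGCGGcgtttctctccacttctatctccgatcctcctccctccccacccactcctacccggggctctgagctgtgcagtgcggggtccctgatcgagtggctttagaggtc

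The windows differed in base composition, with 48% G and C in Crhbp, 68% in Npy and 57.7% in Npy2r, against a median of 52.7% over all 32851 windows. Both strands were searched for TATAAA, for GGGCGG, for the cyclic AMP response element TGACGTCA and for the E-box CACGTG, which do not overlap each other in these windows. TATAAA was found 31 bases past the annotated start of Crhbp and, among the other genes, in Crhr2, and 13.6% of all windows hold it. GGGCGG was found 95 bases before the start of Npy, 62 bases before that of Npy2r and also in Crhr1, beside 35.7% of all windows. CACGTG was found in Npy5r (7.15% of all windows), and TGACGTCA in none of the 7 (1.79% of all windows). A match describes letters in the window only.

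Library totals ran from 43173748 to 71164766 counts in CTX and dHPC, which were made with a non-directional kit and sequenced on an Element AVITI, and from 8149628 to 46564992 in vHPC, DS and VS, which were made with a directional kit and sequenced on a NovaSeq. Regions of these 2 batches were not tested against each other. One library, DS chronic saline replicate 2, was empty for chromosomes 7, 8, 9, X, Y and MT and for chromosome 6 past position 23052915, and so lacked Crhr2, Npy, Npy1r and Npy5r. It was left out, which leaves DS chronic saline with 2 mice and 61 libraries in all. The dissections carried their region's striatal projection or dentate granule neuron markers. Levels are given as CPM (counts scaled to a common library size with TMM factors). The summed level of 10 striatal projection neuron markers had a median of 6291 CPM in DS and 4268 in VS but 366 in CTX. The summed level of dentate granule neuron markers had a median of 476 in dHPC and 459 in vHPC but 113 in CTX. Single libraries departed from this, with striatal sums of up to 2577 CPM in dHPC and 1396 CPM in vHPC, where the lowest VS library held 2162 CPM, and with a dentate sum of 129 CPM in 1 vHPC library, inside the CTX range of 79.5 to 138 CPM. Markers of choroid plexus, a tissue of the ventricles, ranged widely within regions, for example from 31.4 to 3919 CPM in dHPC.

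In saline mice Npy was the most abundant of the 8 genes per length in every region, and the regional profiles of the other genes differed from one another. Levels within a gene are given as CPM, with the mean and SD over saline mice of both paradigms (n = 6, and n = 5 in DS). Levels between genes are given only per kilobase of exon. CPM was scaled within each batch, so levels of different batches compare only roughly. Npy stood at 121 CPM per kilobase for CTX, 58.2 for dHPC, 37.9 for vHPC, 50.7 for DS and 64.3 for VS. The next gene per length was Crhr1 in CTX (11.0 CPM per kilobase), Npy2r in dHPC (10.0) and vHPC (19.6), and Crhbp in DS (3.20) and VS (5.84). Crhr2 was the lowest per length in every region but DS, where Crh was.

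**Figure D1:**
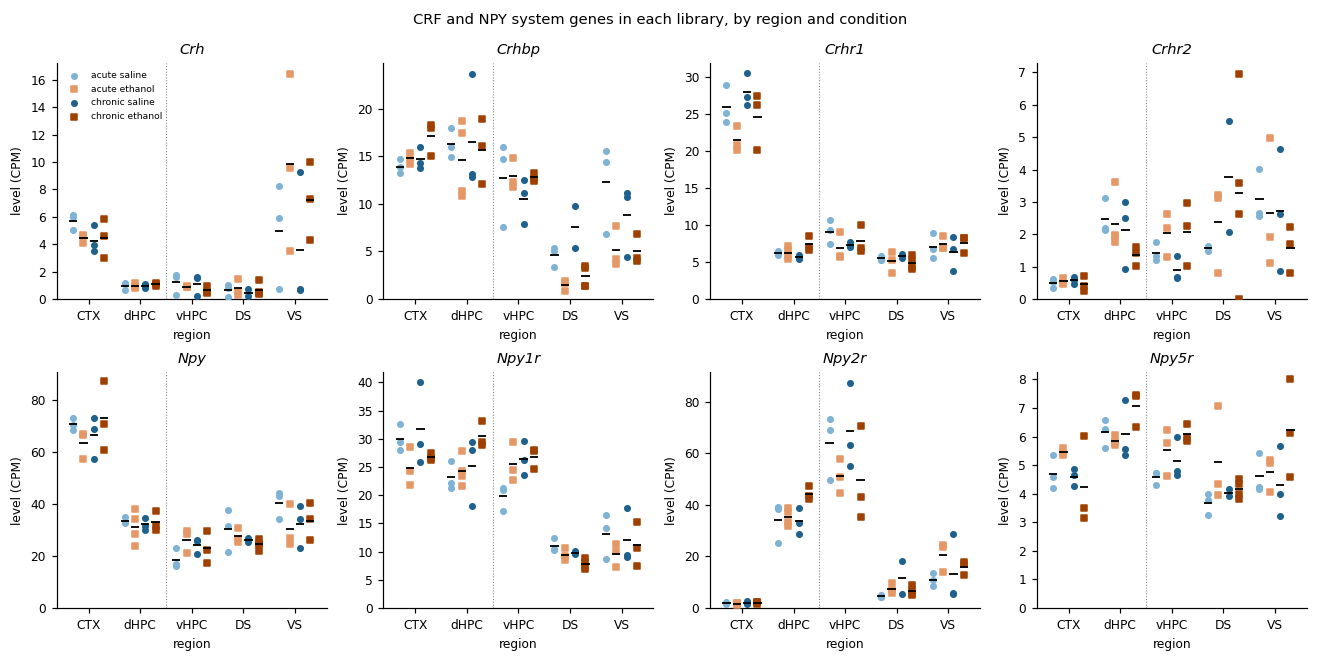
Level of each of the 8 genes (CPM, linear axes from 0) by region; each point is 1 library, color and shape give the 4 conditions, bars are group means, and the dotted line parts the batches. In saline mice Npy2r was at 1.97 ± 0.449 CPM in CTX, the lower of the first batch (CTX and dHPC). Within the second batch it was highest in vHPC (66.3 ± 13.4 CPM). Region means of Npy5r lay between 4.65 and 6.11 CPM in the first batch and between 3.82 and 4.86 CPM in the second.

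Among the peptide genes, Crh was at 4.99 ± 1.07 CPM in CTX, 0.952 ± 0.205 in dHPC and 1.15 ± 0.723 in vHPC, and at 0.582 ± 0.392 in DS and 4.27 ± 4.04 in VS (SD). The VS mean has little meaning, since the saline libraries of VS fell into separate sets for Crh. Replicates 4 and 6 of acute saline and replicate 5 of chronic saline held 8.22, 5.93 and 9.30 CPM, whereas replicate 2 of acute saline and replicates 3 and 6 of chronic saline held 0.756, 0.729 and 0.662 CPM. The last 3 libraries were also the lowest of VS for Npy2r, at 8.6, 5.95 and 5.3 CPM, against 10.9 to 28.9 CPM in the other saline libraries. Over the 12 VS libraries, all treatments included, Crh had a Pearson r of 0.759 with the summed GABAergic interneuron markers (log2 scale). With those of pallial excitatory neurons it was -0.581 and with those of striatal projection neurons -0.516. For Npy2r the values, in the same order, were 0.847, -0.772 and -0.501. A sum follows the most abundant genes of its list. In VS acute saline libraries the GABAergic sum was 1690 to 1861 CPM, and the list's median gene held 51.5 to 65.7 CPM. The part of these cell types in either level was not tested. Npy was at 68.6 ± 5.94 CPM in CTX and 32.9 ± 1.88 in dHPC, and at 21.5 ± 4.31 in vHPC, 28.7 ± 6.19 in DS and 36.4 ± 7.74 in VS, so that its order within the second batch was VS, DS and vHPC with overlapping spreads between neighbours.

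Crhbp was at 14.3 ± 0.96 CPM in CTX and 16.4 ± 4.02 in dHPC, and at 11.6 ± 3.47 in vHPC, 5.76 ± 2.37 in DS and 10.5 ± 4.29 in VS. Its spreads overlapped between CTX and dHPC and between vHPC and VS, and within the second batch DS was the lowest. Crhr1 was at 27.0 ± 2.46 CPM in CTX and 5.92 ± 0.404 in dHPC. Within the second batch it lay between 5.61 ± 0.361 (DS) and 8.19 ± 1.44 (vHPC). Crhr2 was at 0.536 ± 0.122 CPM in CTX and 2.31 ± 0.789 in dHPC, and at 1.16 ± 0.427 in vHPC, 2.45 ± 1.72 in DS and 2.89 ± 1.32 in VS. It followed the choroid plexus markers most closely in dHPC, with a Pearson r of 0.859 on the log2 scale over 13 libraries, all treatments included. The library lowest in Crhr2 there, chronic saline replicate 6, held 0.926 CPM of Crhr2 and a summed choroid plexus level of 38.8 CPM, and the highest, acute ethanol replicate 2, held 3.6 and 3919 CPM; the part of these cells in the Crhr2 level was not tested.

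Among the NPY receptors, Npy1r was at 30.9 ± 5.04 CPM in CTX and 24.2 ± 4.37 in dHPC, and at 23.1 ± 4.38 in vHPC, 10.5 ± 1.07 in DS and 12.6 ± 4.01 in VS. Npy2r was at 1.97 ± 0.449 CPM in CTX and 33.9 ± 5.91 in dHPC, and at 66.3 ± 13.4 in vHPC, 7.47 ± 6.02 in DS and 12.2 ± 8.73 in VS. The large SD of Npy2r in DS came from chronic saline replicate 6, at 18.2 CPM beside 4.38 to 5.24 CPM in the other 4 saline libraries. Npy5r was at 4.65 ± 0.418 CPM in CTX and 6.11 ± 0.733 in dHPC, and at 4.86 ± 0.578 in vHPC, 3.82 ± 0.348 in DS and 4.45 ± 0.93 in VS.

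**Figure D2:**
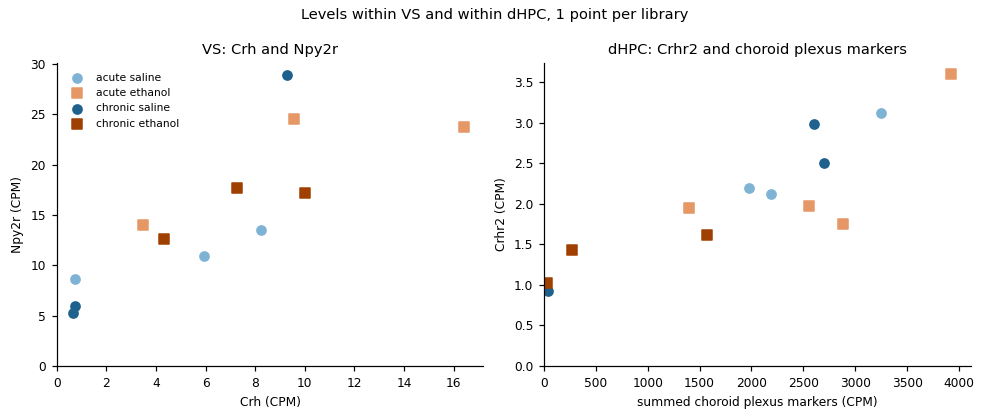
Left, Npy2r against Crh (CPM) in each VS library; right, Crhr2 (CPM) against the summed choroid plexus markers (CPM) in each dHPC library, by condition. On the left 3 saline libraries lie at 0.756 CPM of Crh or less and at 8.6 CPM of Npy2r or less, and on the right Crhr2 runs from 0.926 to 3.6 CPM.

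Saline levels were tested between regions of a batch with edgeR's quasi-likelihood test (edgeR, FDR below 0.1 over all genes tested), and 19 of the 32 tests of the 8 genes passed. dHPC and CTX differed in 7 of the 8 genes, where 55.6% of all genes tested passed. In dHPC, Npy2r was higher than in CTX by 4.10 ± 0.16 on the log2 scale (SE, FDR = 4.57e-10, edgeR), a 17.2-fold difference. Crhr2 was higher by 2.11 ± 0.27 (FDR = 1.93e-05) and Npy5r by 0.39 ± 0.10 (FDR = 0.00431, edgeR). Crh, Crhr1 and Npy were lower in dHPC, with log2 differences of -2.37 ± 0.16 (FDR = 6.03e-08), -2.19 ± 0.07 (FDR = 7.10e-11) and -1.06 ± 0.06 (FDR = 9.75e-09). Npy1r was lower by -0.35 ± 0.12 (FDR = 0.0311, edgeR), and this call was lost with ethanol mice included (-0.14, FDR = 0.126). Of the NPY receptors, Npy2r and Npy5r thus stood higher in dHPC, while Npy itself stood lower. Crhbp differed by 0.20 ± 0.13 (FDR = 0.23).

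vHPC differed from DS in 6 of the 8 genes (43.3% of all genes tested) and from VS in 5 (40.8%). Npy2r was higher in vHPC than in DS by 3.17 ± 0.40 (FDR = 7.67e-06, edgeR) and than in VS by 2.44 ± 0.34 (FDR = 2.62e-05). Npy1r was likewise higher, by 1.12 ± 0.18 (FDR = 0.000106) and 0.85 ± 0.17 (FDR = 0.000608). Npy was lower in vHPC than in VS by -0.78 ± 0.15 (FDR = 0.000455) and than in DS by -0.42 ± 0.16 (FDR = 0.0413, edgeR), the latter not without DS acute saline replicate 6 (FDR = 0.117) or DS chronic saline replicate 3 (-0.38). The peptide and its Y1 and Y2 receptors therefore had opposite orders in vHPC and in the striatal regions. Crhbp was higher in vHPC than in DS by 0.96 ± 0.29 (FDR = 0.0161, edgeR) and differed from VS by 0.14 ± 0.26 (FDR = 0.732). Crhr2 was lower in vHPC than in VS by -1.36 ± 0.36 (FDR = 0.00761, edgeR; -0.67 and FDR = 0.134 with ethanol mice included) and than in DS by -1.12 ± 0.39 (FDR = 0.0303), and Crhr1 was higher than in DS by 0.51 ± 0.19 (FDR = 0.0417). Without DS chronic saline replicate 6, in which the choroid plexus markers summed to 7134 CPM, neither of the 2 DS differences passed, at -0.68 for Crhr2 (FDR = 0.248) and 0.49 for Crhr1 (FDR = 0.114, edgeR).

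VS and DS differed in 1 of the 8 genes (7.07% of all genes tested). Crh was higher in VS than in DS by 2.88 ± 0.85 (FDR = 0.0697, edgeR), and it was lower in vHPC than in VS by -1.87 ± 0.71 (FDR = 0.0497). Regions of the same mouse entered these tests, and with the mouse as a block neither Crh difference passed, at 2.03 ± 0.72 (FDR = 0.174) and -0.88 ± 0.65 (FDR = 0.346, edgeR). Both rest on the VS libraries with high Crh, and without VS chronic saline replicate 5 they were 1.72 (FDR = 0.227) and -0.71 (FDR = 0.437, edgeR). The first was also lost without any of the 5 DS libraries or without VS acute saline replicate 4 or 6, with an FDR between 0.103 and 0.297, and the second without VS acute saline replicate 4 (FDR = 0.119) or vHPC chronic saline replicate 2 (FDR = 0.104, edgeR). The difference of Crhbp between VS and DS was 0.82 ± 0.29 (FDR = 0.127), and the block brought it past the threshold at 1.00 ± 0.25 (FDR = 0.0682, edgeR).

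**Figure D3:**
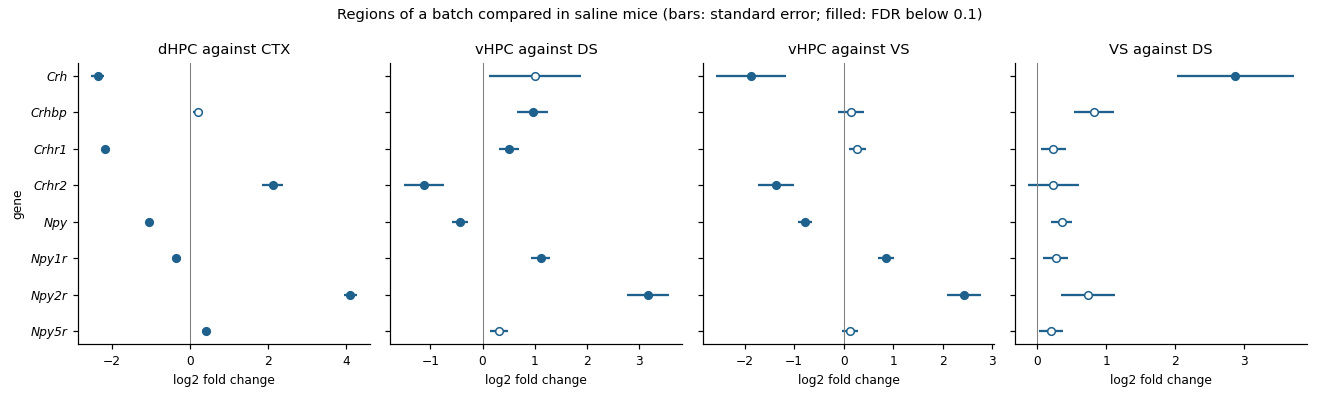
Log2 difference in saline level between regions of a batch for each of the 8 genes, with its standard error; filled points passed an FDR of 0.1 (edgeR). Npy2r was higher in dHPC than in CTX by 4.10 and higher in vHPC than in DS by 3.17, the largest differences of the set.

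Ethanol was then compared with saline within each region and paradigm, to ask whether a single or repeated dose altered the level of these genes 4 h later. All 8 genes were abundant enough to be tested in all 10 comparisons. Of the 80 tests 1 passed an FDR of 0.1 (edgeR), beside 0.714% of all genes tested in these comparisons. It was Crhbp in DS after acute ethanol. An unadjusted p below 0.05 was found in 15 of the 80 tests, beside 10% of all genes tested, and DESeq2 called 6 (1.97% of all genes tested). The groups did not overlap in 12 tests, with ethanol below saline in 6 and above it in 6, beside 15.6% of all genes tested. Acute ethanol gave the 1 call in 40 tests (1.41% of all genes tested in the acute comparisons) and chronic ethanol gave 0 of 40 (0.00986%; edgeR), with 4 at an unadjusted p below 0.05 (9.14%) and 2 called by DESeq2 (0.996%).

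**Figure D4:**
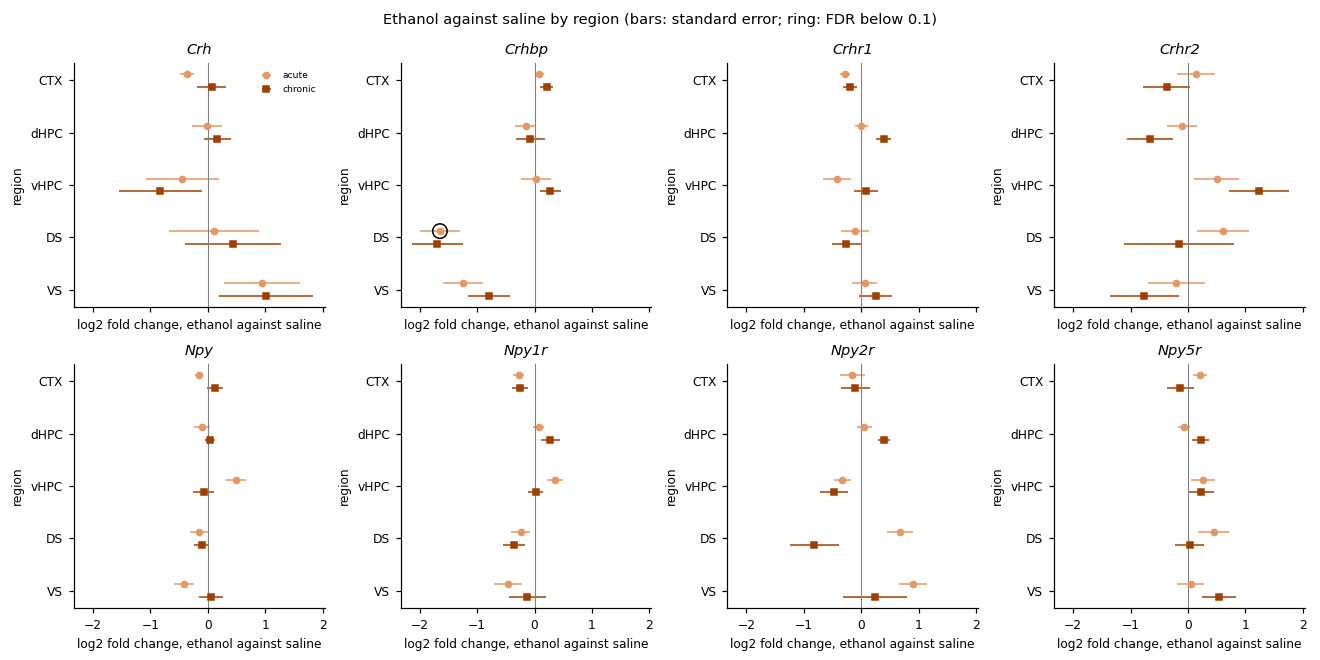
Log2 fold change of ethanol over saline (x axis) for each of the 8 genes in the 5 regions, acute and chronic; bars are standard errors and a ring marks an FDR below 0.1 (edgeR). The single ring is Crhbp in DS after acute ethanol (-1.65 ± 0.36).

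Crhbp fell in DS after acute ethanol. The saline libraries held 5.38, 5.02 and 3.36 CPM and the ethanol libraries 1.93, 0.794 and 1.63 CPM. Every ethanol library lay below every saline library, with means of 4.59 ± 1.08 and 1.45 ± 0.587 CPM (SD, n = 3 each). The fold change was -1.65 ± 0.36 on the log2 scale (SE, FDR = 0.0231, edgeR; FDR = 0.00097, DESeq2), a level 3.14-fold lower with ethanol, where 5.15% of all genes tested passed. The call held when each library was left out in turn (FDR from 0.025 to 0.0951, edgeR) and was lost with all 4 DS groups in a single fit (-1.65, FDR = 0.110). Both annotated isoforms, which share most of their reads, fell by the same amount (-1.66 ± 0.32, FDR = 0.00681 each, edgeR over all isoforms), beside 3.59% of all isoforms tested.

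The same gene had the lowest fold changes of the set in the other striatal comparisons, although none passed with edgeR. In DS after chronic exposure the saline libraries held 9.74 and 5.31 CPM and the ethanol libraries 1.34, 3.44, 3.25 and 1.39 CPM, so that the groups did not overlap. The fold change was -1.69 ± 0.44 (FDR = 0.44, edgeR; FDR = 0.0775, DESeq2), with 2 saline mice. In VS after acute exposure the saline libraries held 6.8, 14.4 and 15.5 CPM and the ethanol libraries 7.65, 3.63 and 4.24 CPM. Here 1 ethanol library, replicate 2, lay above the lowest saline library, and the fold change was -1.25 ± 0.35 (FDR = 0.428, edgeR; FDR = 0.0545, DESeq2). Without that library it was -1.64 ± 0.34 (FDR = 0.0744, edgeR). In VS after chronic exposure the saline libraries held 11.2, 4.4 and 10.8 CPM and the ethanol libraries 3.95, 6.85 and 4.32 CPM, a fold change of -0.80 ± 0.36 (FDR = 0.515). The low saline library was replicate 5, without which the change was -1.12 ± 0.26 (FDR = 0.072, edgeR).

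In CTX, dHPC and vHPC, by contrast, Crhbp changes lay between -0.15 and 0.28 on the log2 scale in both paradigms and none passed. In CTX after acute exposure the saline libraries held 13.2, 14.7 and 13.8 CPM and the ethanol libraries 14.7, 14.2 and 15.4 CPM (0.09 ± 0.08, FDR = 0.722, edgeR). Whether the ethanol difference itself differed between DS and these regions was not tested. Within DS the chronic minus acute difference of the ethanol effect on Crhbp was -0.04 ± 0.64 (FDR close to 1, edgeR), and within VS it was 0.45 ± 0.56 (FDR = 0.997).

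Markers of pallial excitatory neurons, the glutamatergic cells of cortex, hippocampus and neighbouring nuclei, moved with Crhbp in the striatal libraries. In DS after acute exposure 11 of the 11 markers fell, where 3.1% of all genes tested fell, and their median change was -2.91 on the log2 scale. Their summed level was 1729 to 1915 CPM in saline and 944.5 to 1141 CPM in ethanol libraries. Nrgn, the most abundant of them, held 968 to 1059 CPM of the saline and 723 to 841 CPM of the ethanol sums. Slc17a7, which encodes a vesicular glutamate transporter, went from 278–368 to 11.2–79.0 CPM. The same list had a median of -2.33 in DS chronic (0 of 11 called), with sums of 1554 to 1565 CPM in saline and 721 to 1214 CPM in ethanol libraries and Neurod2 at 0 in 1 of the latter. It had a median of -2.62 in VS acute, where 1 of 11 fell (Neurod2, -3.57; 0.0399% of all genes tested passed) and Emx1 was at 0 in 1 ethanol library, and of -2.92 in VS chronic (0 of 11 called). The VS sums were 957 to 1508 and 503 to 720 CPM in acute saline and ethanol, and 594 to 1693 and 492 to 691 CPM in chronic saline and ethanol. The chronic saline library with the sum of 594 CPM was replicate 5, the saline library with the lowest Crhbp. The 12 libraries of a region include all treatments and share dissection and depth. Over them Crhbp and the summed list had, on the log2 scale, a Pearson r of 0.917 in VS and 0.624 in DS, but of -0.274 in CTX. In VS and DS both levels were lower on average with ethanol, so r also carries that group difference. For Crhbp in DS, r was -0.758 with the summed GABAergic interneuron markers, -0.724 with those of striatal projection neurons and -0.674 with those of dentate granule neurons. In DS acute, GABAergic interneuron markers moved both ways, with 2 higher (Gad2, 0.34; Lamp5, 0.46) and 4 lower (among them Cck, -2.50; Vip, -2.66), and 8 of 10 striatal projection neuron markers were higher, with a median of 0.24, beside the 5.15% of all genes that passed. The median over all genes tested in these 4 comparisons lay between -0.0068 and 0.005 on the log2 scale. The part of these cell types in the Crhbp difference was not tested.

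**Figure D5:**
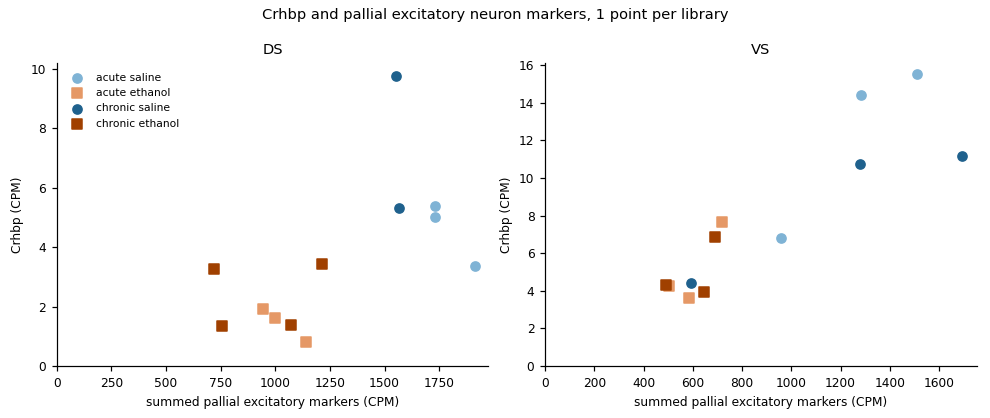
Crhbp level (CPM) of each DS and VS library against the summed level of 11 pallial excitatory neuron markers (CPM), by group. All ethanol libraries of DS lie at low values of both, at 1214 CPM of summed markers or less and at 3.44 CPM of Crhbp or less.

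Crh itself did not pass in any of the 10 comparisons, and its errors were the largest of the set (median SE of 0.65). In CTX after acute exposure the saline libraries held 6.11, 6 and 5.06 CPM and the ethanol libraries 4.62, 4.05 and 4.66 CPM. The groups did not overlap, and the fold change was -0.36 ± 0.12 (FDR = 0.211, edgeR). In VS the ethanol libraries held 3.49, 16.4 and 9.57 CPM after acute and 7.26, 10 and 4.32 CPM after chronic exposure, all of them above the 3 saline libraries near 0.7 CPM and overlapping the other saline libraries. Fold changes there were 0.94 ± 0.66 (FDR = 0.844) and 1.01 ± 0.83 (FDR = 0.732, edgeR). Without VS chronic saline replicate 5 the chronic value was 3.35 ± 0.45 (FDR = 0.00883, edgeR). That fit keeps only chronic saline replicates 3 and 6, which both belong to the libraries near 0.7 CPM. In vHPC, replicate 2 of acute and of chronic saline held 0.269 and 0.179 CPM beside 1.5 to 1.74 CPM in the other saline libraries, and ethanol libraries held 0.424 to 0.938 CPM. Sparse counts of Crh in vHPC and DS limit what can be detected there.

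Crhr1, the main CRF receptor of neurons, gave its smallest FDR in CTX after acute exposure. Saline libraries held 23.9, 29 and 25.2 CPM and ethanol libraries 23.4, 20.1 and 20.9 CPM. All ethanol libraries were below all saline libraries, with a fold change of -0.28 ± 0.09 (FDR = 0.178, edgeR; FDR = 0.0743, DESeq2), and without CTX acute ethanol replicate 2 it passed at -0.34 (FDR = 0.0978, edgeR). In dHPC after chronic exposure the order was the other way, with 5.35, 5.58 and 5.91 CPM in saline and 6.63, 7.05 and 8.48 CPM in ethanol libraries (0.40 ± 0.13, FDR = 0.566, edgeR). The 6 dentate granule neuron markers summed to 358.8 to 473.2 CPM in those saline and 496.7 to 672.6 CPM in those ethanol libraries. Over the 13 dHPC libraries, all treatments included, Crhr1 had an r of 0.721 with their sum and of -0.541 with the striatal projection neuron sum (log2 scale). The part of these markers in the Crhr1 value was not tested. Elsewhere Crhr1 changes lay between -0.42 and 0.25 with overlapping groups. Crhr2 ranged from -0.76 in VS chronic to 1.24 ± 0.52 in vHPC chronic (FDR = 0.5, edgeR). In the latter, choroid plexus markers moved too, with 3 of 6 higher (Clic6, Kcne2 and Kl; 0.0555% of all genes tested passed) and a median of 4.07, and sums of 26.1 to 201.5 CPM in saline and 873.5 to 3104 CPM in ethanol libraries; their part in the Crhr2 value was not tested. In DS chronic ethanol replicate 4 no Crhr2 read was counted of 10437257, which allows up to 0.303 CPM by counting error alone.

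Npy gave no call, with fold changes between -0.42 and 0.49 and a median SE of 0.15. In CTX after acute exposure saline libraries held 73.2, 68.7 and 70.4 CPM and ethanol libraries 67.1, 57.4 and 66.7 CPM. The groups did not overlap but stood close (-0.15 ± 0.07, FDR = 0.358, edgeR). In vHPC after acute exposure saline libraries held 16.3, 16.8 and 23.0 CPM and ethanol libraries 28.5, 29.5 and 21.0 CPM (0.49 ± 0.18, FDR = 0.352, edgeR), with 1 ethanol library below 1 saline library. In VS after acute exposure the value was -0.42 ± 0.18 (FDR = 0.664, edgeR), and without VS acute ethanol replicate 2 it passed at -0.65 (FDR = 0.086). Over the 12 VS libraries, all treatments included, Npy had an r of 0.672 with the pallial excitatory sum (log2 scale). The part of the pallial markers in the Npy value was not tested.

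Npy1r in CTX after acute exposure was at 32.6, 29.4 and 28.0 CPM in saline and 28.5, 21.7 and 24.3 CPM in ethanol libraries, with 1 library of each group crossing the other. The fold change was -0.27 ± 0.09 (FDR = 0.229, edgeR), and without CTX acute ethanol replicate 2 it passed at -0.38 (FDR = 0.058). In vHPC after acute exposure it was higher in all 3 ethanol libraries (22.7, 24.4 and 29.4 CPM) than in saline (21.3, 20.9 and 17.2 CPM), at 0.35 ± 0.14 (FDR = 0.385, edgeR). The dentate granule neuron markers summed to 129.5 to 330.8 CPM in those saline and to at least 449.2 CPM in each of those ethanol libraries. Over the 12 vHPC libraries, all treatments included, Npy1r had an r of 0.841 with their sum (log2 scale). The part of these markers in the Npy1r value was not tested. In DS after chronic exposure Npy1r was at 10.2 and 9.48 CPM in saline and 6.87, 8.8, 8.2 and 7.31 CPM in ethanol libraries, without overlap (-0.35 ± 0.19, FDR = 0.72, edgeR). The pallial excitatory neuron sums, given above, separated the same groups. Over the 12 DS libraries, all treatments included, Npy1r had an r of 0.752 with that sum (log2 scale). The part of the pallial markers in this value was not tested. Over the 10 comparisons the changes of Npy1r lay between -0.46 and 0.35. Npy5r, its neighbour on chromosome 8, stayed between -0.13 and 0.54 and had no unadjusted p below 0.05 in the 10 comparisons. In CTX after acute exposure Crh, Crhr1, Npy and Npy5r, 4 of the 8 genes, had groups that did not overlap, beside 17.3% of all genes tested there; Npy5r was the one above saline (0.21 ± 0.12, FDR = 0.517, edgeR).

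Npy2r had an unadjusted p below 0.05 in 3 comparisons, all with values above 0. In VS after acute exposure saline libraries held 8.6, 13.5 and 10.9 CPM and ethanol libraries 14.0, 23.8 and 24.5 CPM. The groups did not overlap, at 0.90 ± 0.24 (FDR = 0.42, edgeR; FDR = 0.0657, DESeq2), and without VS acute ethanol replicate 2 the change passed at 1.13 (FDR = 0.0345, edgeR). The pallial excitatory neuron markers had lower sums in the acute ethanol libraries of VS and DS, as given above, and their part in the Npy2r values was not tested. In DS after acute exposure saline libraries held 5.08, 4.43 and 4.38 CPM and ethanol libraries 9.63, 5.76 and 6.92 CPM (0.67 ± 0.23, FDR = 0.155, edgeR), again without overlap. In dHPC after chronic exposure saline libraries held 39.0, 28.9 and 33.0 CPM and ethanol libraries 42.2, 47.4 and 43.5 CPM (0.40 ± 0.11, FDR = 0.566, edgeR; FDR = 0.0714, DESeq2). Here too every ethanol library was above every saline library. The dentate granule neuron markers, given above for Crhr1, separated the same groups. Over the 13 dHPC libraries, all treatments included, Npy2r had an r of 0.771 with the pallial excitatory and 0.511 with the dentate sum (log2 scale). With the striatal projection neuron sum it was -0.606. That striatal sum ran from 234 to 2577 CPM in the chronic saline and from 201 to 330 CPM in the chronic ethanol libraries of dHPC. The part of these markers in the Npy2r value was not tested. In vHPC the Npy2r values were -0.33 ± 0.15 after acute (FDR = 0.434) and -0.47 ± 0.24 after chronic exposure (FDR = 0.564, edgeR). In DS after chronic exposure the value was -0.81 ± 0.43 (FDR = 0.708, edgeR) and rested on the saline library at 18.2 CPM, without which it was 0.34. In VS after chronic exposure the value was 0.24 ± 0.55 (FDR = 0.921, edgeR). Without VS chronic saline replicate 5, at 28.9 CPM, it was 1.48 (FDR = 0.0107, edgeR), against the saline libraries at 5.95 and 5.3 CPM alone.

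The difference between the chronic and the acute ethanol effect passed an FDR of 0.1 for none of the 8 genes in any region (0 of 40 interaction tests with edgeR and 0 with DESeq2, where 0% and 0.386% of all genes tested passed). An unadjusted p below 0.05 was found in 2 tests (6.55% of all genes tested). Those 2 were Crhr1 in dHPC (0.39 ± 0.17, FDR = 0.969) and Npy2r in DS (-1.48 ± 0.52, FDR = 0.973, edgeR). Between saline mice after 10 injections and after 1, 0 of 40 tests passed with edgeR (0.558% of all genes tested), 6 had an unadjusted p below 0.05 (9.12%) and 1 passed with DESeq2 (1.42%). The DESeq2 call was Npy2r in DS, at 1.34 ± 0.43 (FDR = 0.174, edgeR; FDR = 0.0767, DESeq2). It rests on chronic saline replicate 6, and the same comparison had 6 of 6 choroid plexus markers higher with a median of 4.88, where 3.17% of all genes tested passed. Length of treatment and cohort cannot be told apart in that comparison, and the pair of paradigms shares no saline group.

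The 8 genes have 23 annotated isoforms, and a read was counted for each isoform it overlapped. Of 226 isoform tests 2 passed (edgeR), both of them Crhbp in DS after acute ethanol, beside 0.498% of all isoforms tested, and DESeq2 called 12 (1.18%).

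The rest of the 2 pathways was counted from fixed lists, beside 5.15% of all genes tested that passed in DS acute (3.1% lower) and 1.99% in CTX acute (1.17% lower). The other peptides and receptors (Ucn, Ucn2 and Ucn3, which encode urocortins, Pyy, Ppy and Npy4r) were too low to be tested in any comparison, with 0 to 84 counts each over all libraries. Of 12 genes of peptide processing and secretory granules, 1 fell in DS after acute ethanol, Pcsk1, a prohormone convertase (-1.01 ± 0.20, FDR = 0.0131, edgeR), and 0 passed in the other 9 comparisons. Of 20 genes of cyclic AMP and G protein signalling, 4 rose and 5 fell in DS acute. Among them were the adenylyl cyclase genes Adcy5 (0.37) and Adcy1 (-0.70), the G protein gene Gnas (-0.57) and the receptor kinase gene Grk3 (-0.60). Markers of pallial excitatory and striatal projection neurons moved in the same comparison, as given above. The part of these cell types in the signalling values was not tested. In CTX acute 1 of the 20 fell, Adcy8 (-0.43, FDR = 0.034, edgeR). Of 8 genes of the glucocorticoid response, 2 rose in CTX acute, Fkbp5 (0.93 ± 0.13, FDR = 0.0103) and Tsc22d3 (0.55, FDR = 0.0632), both known glucocorticoid-induced genes. In DS acute 3 rose (Fkbp5, 0.80; Sgk1, 0.66; Tsc22d3, 0.49) and the chaperone gene Fkbp4 fell (-0.34). None of these lists had a call in the other 8 comparisons (edgeR). Fkbp5 was above 0 in 10 of 10 comparisons, from 0.03 to 0.93.

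Between dHPC and CTX, 8 of the 12 peptide processing genes were lower in dHPC, beside 26.6% of all genes tested, among them the convertase genes Pcsk1 (-1.68) and Pcsk2 (-0.81), the peptidase gene Dpp4 (-1.76) and the granule gene Scg5 (-0.55), and 3 were higher.

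The genes with the most similar profiles over the 20 group means, after each batch was centred, were found by Pearson correlation of log2 CPM. The 3 most like Npy2r were Lman2l, Cachd1 and Kctd4, with r between 0.978 and 0.988, and those most like Crhr1 were Cux2, Tnfrsf11a and Etnk2, with r between 0.963 and 0.977. Crh was most like Tac2, Insyn2a and Sgsm1 (0.954 to 0.964), Npy like Ccl27a, Gm12371 and Vopp1 (0.954 to 0.967), and Npy1r like Stxbp5, Zfp697 and Fbxo34 (0.969 to 0.975). The profile of Npy5r (Timm29, Tiam1 and Rbbp5, 0.874 to 0.890) had less close matches than these. Over the same 20 points, Crhr1 and Npy were the most alike of the 8 genes (r = 0.762). Npy and Npy2r were the least alike (r = -0.842). The points share libraries and depth and are 4 conditions of each of 5 regions. They are not 20 separate observations, and each r also carries the differences between regions given above.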

How the data were processed

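The authors used Cutadapt 5.0 for trimming, STAR 2.7.10a for alignment to GRCm39 and featureCounts 2.0.6 for counting on the exons of the Ensembl annotation. The deposited values are raw counts per gene and per isoform, with reads that map to several places or features counted for each. All libraries were counted as reverse-stranded, also those of the CTX and dHPC, whose kit keeps no strand. Of gene counts from 1 to 20, 69.2% were even in CTX and dHPC and 89.2% in the others, so that both mates of a pair were often counted and counts are not independent molecules. Sequencing reads without molecular identifiers carry more than counting error, which is all that a limit from 0 counts covers.

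From these counts, edgeR 4.0.16 (limma 3.58.1, R 4.3.3; TMM, quasi-likelihood F test, prior count 0.125) was run on every gene that reached 5 counts in 2 or more libraries of a group, with Benjamini-Hochberg adjustment and an FDR threshold of 0.1. Each ethanol comparison used its own 2 groups, the interaction test all 4 groups of a region, and region tests the saline libraries of a batch. CPM, used for description, is the count over the library's TMM-scaled total, computed per batch. DS chronic saline replicate 2 was left out of the main fits. Alternatives were DESeq2 1.42.0 (Wald test, the study's tool), DESeq2 size factors, no filter or a stricter one (10 counts in each library), all 4 groups in a single fit, all conditions in the region tests, a replicate or mouse block, the truncated library, and each library left out in turn. Replicates are separate mice. Mice shared between regions (4 or 5) had median deviation correlations of -0.00454 to 0.0812, and are paired because they are the same animal. Tests were checked on simulated data. Python 3.11.15, pandas 2.3.3, NumPy 2.4.6 and matplotlib 3.10.9 made tables and plots.

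The genes, gene lists, tests and alternatives were chosen with earlier results of these data known. All 8 genes were tested in every comparison and are named with their values or their range, and for each list at most 4 genes that passed, in order of FDR. The 3 most similar genes had a mean of at least 1 CPM. The genes most similar to Crhbp and Crhr2, and 1 marker's own level, are not reported here.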

Additional observations from a re-analysis of the deposited data

Results flagged for a closer look

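In each group of 4 libraries, the highest and lowest library were compared with the others for each of the 8 genes, 16 sets in all, and chance sets apart about 1 in 20. Crh in DS chronic ethanol stood apart through replicate 4, at 1.42 CPM beside 0.348 to 0.5 CPM in the other 3 libraries. Crhr2 in dHPC acute ethanol stood apart through replicate 2, at 3.6 CPM beside 1.75 to 1.97 CPM, and the same library had the highest summed level of choroid plexus markers in dHPC, 3919 CPM.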

How the results depend on the processing

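Acute ethanol gave 1 call among the 8 genes with edgeR, 4 with DESeq2, 7 without a low-count filter, 0 with all 4 groups in a single fit and 2 with the replicate number as a block in the 2 regions that allow it (CTX and dHPC), 1 of them the unblocked call of Crhbp in DS (1 to 4 when a library was left out). Chronic ethanol gave 0, against 2 with DESeq2 and 2 without a filter (0 to 3). The interaction gave 0, against 1 without a filter (0 to 0), and chronic against acute saline 0, against 1 with DESeq2 and 2 without a filter (0 to 2; the 2 came without DS chronic saline replicate 3, which leaves 1 library in that group, assumed to vary like the others). Region tests gave 19, against 12 with DS chronic saline replicate 2 included (16 to 20). Isoform tests gave 2, against 12 with DESeq2. Of the single values recomputed, 2431 kept their call and direction, 49 passed the threshold newly and 27 lost it. Another 164, which did not pass, moved. These include changes of direction, such as that of Npy2r in DS after chronic ethanol given above. Among values that passed, 0 reversed. The cause was not tested. Replicate numbers did not pair animals, with deviation correlations of -0.00584, -0.0262 and 0.0147 in dHPC acute, 0.0716 and 0.117 in CTX acute, and 0.0473 and -0.268 in CTX chronic. The replicate block added the call of Npy1r in CTX acute (-0.31, FDR = 0.0957, edgeR), and the mouse block changed the calls of Crh and Crhbp between regions that are given above and no other call. With 3 mice in most groups, and SE medians up to 0.65 (Crh), changes of small size would not be detectable at this depth.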
